A study of Mus musculus with 12 samples.

Results

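Cd207 and 6 related C-type lectin genes of myeloid cells, Cd209a, Cd209f, Clec10a, Clec4n, Clec7a and Mgl2, were followed in the left ventricle of mice that had lost Nkx2-5 in trabecular myocardium before birth. They are 7 of 34844 gene names on the array and are covered by 8 of 55681 probes, 2 of them for Cd209a. The genes were selected on measured values: Cd207 was taken because it had the largest difference from control hearts, and the others because they are related to it. The differences of these genes from control hearts are therefore given as a description, with no test, and only the difference between both mutants was tested for them.

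Left ventricular wall with the apex was taken from 12 mice aged 6 months, and total RNA from 1 mouse was hybridised to each one-colour array, with 4 arrays per group. Nkx2-5ΔTrbE10 mice (TrbE10, labelled Nkx2-5Δtrab) came from females injected with tamoxifen on embryonic days E10.5 plus E11.5, and Nkx2-5ΔTrbE14 mice (TrbE14, labelled Nkx2-5Δcomp) from females injected on E13.5 plus E14.5. Both carried floxed Nkx2-5-ΔNeo alleles and an inducible Cre (Cx40-creERT2) driven by the Cx40 locus, which is active in embryonic trabeculae. The paper reports that the deletion covered much of the ventricular myocardium in TrbE10 and stayed subendocardial in TrbE14. For the control group the labels state that no injection was made, while the methods of the study name littermates with floxed alleles and no Cre, and the 2 descriptions could not be reconciled here. The TrbE10 arrays lay on a slide of their own, slide 2, whereas control and TrbE14 arrays shared slide 1, so slide and TrbE10 cannot be told apart. Between 22888 and 26151 probes per array were well above background, the scanner software's own call.

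C-type lectins bind sugars on microbes and on the body's own glycoproteins, and myeloid cells use them to take up antigen and to signal. Cd207 encodes langerin, which forms the Birbeck granules of epidermal Langerhans cells and is also made by some dendritic cells of other tissues. Cd209a and Cd209f are mouse relatives of human DC-SIGN. Clec10a and Mgl2 are a pair of galactose-type lectins of macrophages and dendritic cells, Clec7a is dectin-1, the receptor for fungal beta-glucans, and Clec4n is dectin-2, which binds mannans and signals through the adaptor Fcer1g.

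The probe of Cd207 lies on chromosome 6 at chr6:83621442-83621501 on the minus strand (mm9, as the array annotation gives it). Cd207 and its neighbour Clec4f, also a C-type lectin gene, are shown with Clec7a by the 250 bases before their RefSeq start sites (GRCm38.p6), because Cd207 and Clec7a were the members with higher means in both mutants and Clec4f is the nearest other measured gene to Cd207. Capitals mark matches, on either strand, to any of 6 short motifs: AP-1 (TGACTCA), PU.1 (GAGGAA), RUNX (TGTGGT), the TATA box (TATAAA), NKX2-5 (TNAAGTG) and C/EBP (TTGCNNAA).
Cd207, chr6:83677858-83678107, minus strand: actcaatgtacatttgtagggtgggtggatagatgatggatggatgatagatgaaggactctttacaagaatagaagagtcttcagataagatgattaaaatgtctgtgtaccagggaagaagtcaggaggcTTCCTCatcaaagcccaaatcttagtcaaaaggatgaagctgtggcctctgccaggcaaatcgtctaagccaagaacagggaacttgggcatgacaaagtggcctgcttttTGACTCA
Clec4f, chr6:83656117-83656366, minus strand: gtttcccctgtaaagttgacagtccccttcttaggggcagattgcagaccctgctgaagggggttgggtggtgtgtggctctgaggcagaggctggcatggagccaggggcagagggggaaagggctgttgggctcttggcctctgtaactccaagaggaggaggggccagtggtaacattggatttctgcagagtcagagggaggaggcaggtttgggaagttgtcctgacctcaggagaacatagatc
Clec7a, chr6:129472780-129473029, minus strand: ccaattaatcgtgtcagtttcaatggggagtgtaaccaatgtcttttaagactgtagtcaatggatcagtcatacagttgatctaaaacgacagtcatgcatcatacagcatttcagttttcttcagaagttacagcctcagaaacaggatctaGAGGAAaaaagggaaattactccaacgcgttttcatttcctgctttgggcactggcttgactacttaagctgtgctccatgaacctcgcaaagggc

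The Cd207 window held an AP-1 match at its last 7 bases (positions -7 to -1 from the start site) and a PU.1 match on the opposite strand at -118 to -113. The Clec7a window held a PU.1 match at -96 to -91, and the Clec4f window held none of the 6 motifs. Over all 32851 windows of this length, 4.46% held the AP-1 letters and 23.3% the PU.1 letters. Promoters of Cd209a, Cd209f and Mgl2 were also searched. The Cd209f window held an AP-1 match at -83 to -77 and a TATA match at -29 to -24, Mgl2 held a PU.1 match at -225 to -220, and Cd209a held TATA and NKX2-5 matches. A match is only a run of letters, the motifs were chosen after the expression values were known, and Clec10a and Clec4n were not searched.

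Cd207 went from no measured signal in control hearts to a clear signal in all mutant hearts of both kinds, the difference for which it was chosen. On the log2 scale of quantile-normalised signal it was 4.33, 3.47, 3.09 and 2.93 in the 4 control hearts. It was 10.86, 10.13, 11.18 and 10.97 in TrbE10 and 10.44, 10.37, 10.35 and 10.34 in TrbE14 hearts. No control array was well above background for Cd207 and all 8 mutant arrays were, so the groups were far apart and did not overlap. Among all 24593 probes kept by the filter, 4.59% in TrbE10 and 4.3% in TrbE14 had every mutant array above every control array. As scanned, before any scaling between arrays, the processed signal lay between 7.72 and 20.9 in the control hearts, between 1054 and 2195 in the TrbE10 and between 1150 and 1469 in the TrbE14 hearts.

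**Figure D1:**
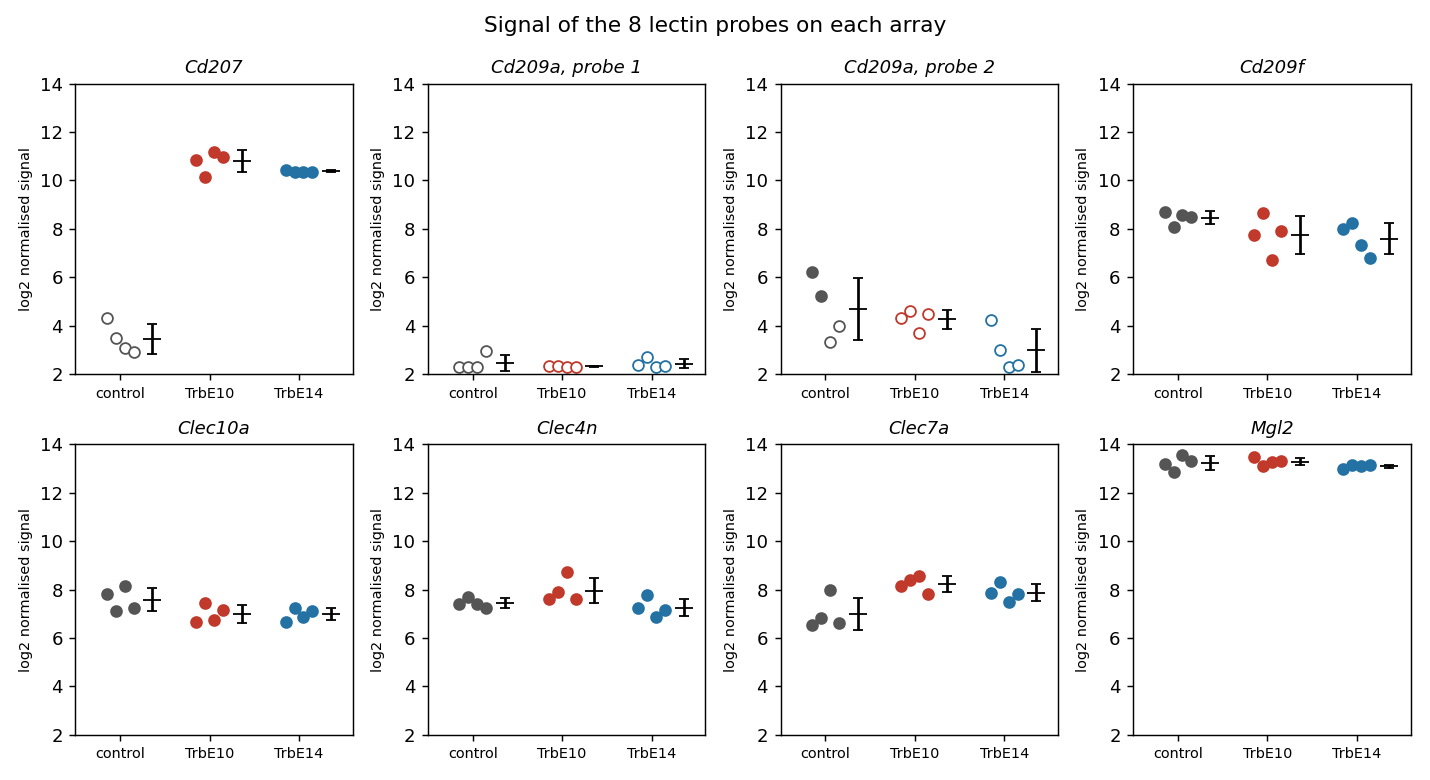
Quantile-normalised log2 signal (y axis) of each of the 8 probes on each of the 12 arrays, by group (x axis); filled points are well above background, open points are not, and the bar to the right of each group is its mean ± SD (n = 4). Cd207 has 4 open control points between 2.93 and 4.33 and 8 filled mutant points between 10.13 and 11.18, while the groups of every other probe overlap.

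The Cd207 mean was 10.79 ± 0.46 in TrbE10 and 10.38 ± 0.05 in TrbE14 hearts (SD, n = 4 each), log2 differences of 7.33 and 6.92 from the control mean of 3.45 ± 0.63 (SD, n = 4). Because no control heart had a measured level, these sizes have only lower bounds, at least 74.7-fold in TrbE10 and at least 56.1-fold in TrbE14. Each bound set the mutant mean against a control mean in which an array gave its lowest signal well above background, or the probe's own where higher. The size depended on how background was treated: normexp correction gave log2 differences of 4.44 and 4.04, and the authors' normalised values gave 5.72 and 5.31, which as fitted folds lie below the stated bounds. By absolute log2 change, the value that chose it, Cd207 stood at rank 1 of 24593 probes kept by the filter in both mutants, and at rank 1 under normexp and with the authors' values too. The next gene was Cxcl13, a chemokine that attracts B cells, at 5.50 in TrbE10, followed by Bmp10, a growth factor of trabecular myocardium, at 4.27. With Cd207 as 1 called gene of the 6 members measured in each mutant, the share called among all 18021 genes was 2.15% in TrbE10 (1.36% higher in the mutant) and 0.76% in TrbE14 (0.583% higher). Cd207 was chosen by that contrast, so nothing is read from the count.

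Between the mutants Cd207 did not differ detectably. The TrbE10 mean was higher by 0.41 (95% confidence interval -0.22 to 1.05), with an adjusted p of 0.939 by limma and an exact two-sided permutation p of 0.143 (n = 4 per group), where 0.0286 is the smallest p that 4 against 4 arrays can give. The TrbE10 hearts spread from 10.13 to 11.18, a range that holds all 4 TrbE14 hearts. The 2 replicate sets differed in tightness, with an SD of 0.46 in TrbE10 and 0.05 in TrbE14.

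Clec7a, dectin-1, was the only other member with higher means in both mutants. It read 6.52, 6.83, 7.97 and 6.62 in control, 8.16, 8.39, 8.57 and 7.83 in TrbE10 and 7.86, 8.31, 7.48 and 7.84 in TrbE14 hearts. The means differed from control by 1.25 in TrbE10 and 0.89 in TrbE14, and control replicate 3, at 7.97, lay inside the range of both mutants. Without that heart the differences were 1.58 in TrbE10 and 1.21 in TrbE14. The mutants differed by 0.36 (95% confidence interval -0.30 to 1.03; adjusted p = 0.946 by limma; exact permutation p = 0.2).

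Clec4n, dectin-2, was the measured member with the largest difference between the mutants. It read 7.41, 7.71, 7.39 and 7.24 in control, 7.63, 7.88, 8.71 and 7.60 in TrbE10 and 7.23, 7.76, 6.88 and 7.16 in TrbE14 hearts. TrbE10 replicate 3 stood highest at 8.71, and TrbE14 replicate 2, at 7.76, lay among the TrbE10 hearts. TrbE10 exceeded TrbE14 by 0.70 (95% confidence interval 0.15 to 1.25), which did not pass after adjustment (adjusted p = 0.769 by limma; exact permutation p = 0.0857). From control the means differed by 0.52 in TrbE10 and -0.18 in TrbE14. Leaving out TrbE10 replicate 3 brought the first to 0.27, and the second was -0.35 without TrbE14 replicate 2 and -0.05 without TrbE14 replicate 3.

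Clec10a had a lower mean in both mutants, with overlapping groups. It read 7.82, 7.13, 8.15 and 7.25 in control, 6.65, 7.43, 6.75 and 7.17 in TrbE10 and 6.68, 7.26, 6.89 and 7.12 in TrbE14 hearts, with differences from control of -0.59 and -0.60. The mutants were nearly level with each other, at 0.01 (95% confidence interval -0.53 to 0.56; adjusted p = 0.996 by limma; exact permutation p = 0.943).

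Mgl2 read 13.19, 12.87, 13.57 and 13.31 in control, 13.47, 13.12, 13.28 and 13.31 in TrbE10 and 12.98, 13.13, 13.10 and 13.13 in TrbE14 hearts. All 3 groups overlapped, with differences from control of 0.06 and -0.15, and the first was -0.06 without control replicate 2. The probe was bright on every array, and whether another transcript adds to it was not tested, so these are values of the probe. TrbE10 exceeded TrbE14 by 0.20 (95% confidence interval -0.09 to 0.50; adjusted p = 0.939 by limma; exact permutation p = 0.0857). The probes of Clec10a and Mgl2 lie on chromosome 11 at chr11:69984254-69984313 and chr11:69950985-69951044 (mm9).

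Cd209f also had lower means in both mutants, and its mutant hearts were spread widely. It read 8.71, 8.09, 8.57 and 8.48 in control, 7.74, 8.65, 6.73 and 7.91 in TrbE10 and 7.99, 8.22, 7.34 and 6.82 in TrbE14 hearts. The SD was 0.27 in control, 0.79 in TrbE10 and 0.64 in TrbE14, and the highest heart of each mutant lay within or above the control range. The means differed from control by -0.70 and -0.87, the first being -0.36 without TrbE10 replicate 3, and between the mutants by 0.17 (95% confidence interval -0.69 to 1.02; adjusted p = 0.978 by limma; exact permutation p = 0.743).

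Cd209a was not measured in any group by the filter used. Its first probe was never well above background. The second read 6.21, 5.23, 3.35 and 3.97 in control hearts, of which the first 2 were well above background, and none of the 8 mutant arrays was, with readings from 2.31 to 4.59. The first 30 bases of the 60-base probes are given to show that the 2 probes sample different stretches of the gene.
Cd209a, probe 1: tccttgtcaaagtctacaaaatacccagtt
Cd209a, probe 2: ggacatggtgagcctcaatgttatagacct

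**Figure D2:**
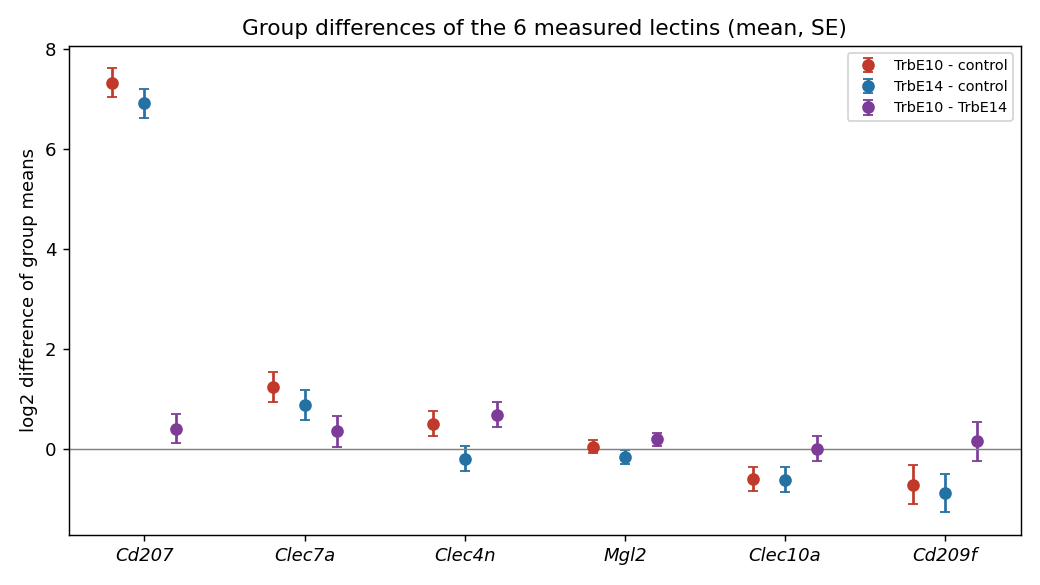
Log2 differences of group means (y axis, error bars SE from the limma fit) for the 6 measured lectins (x axis), for each mutant against control and for TrbE10 minus TrbE14. Cd207 stands at 7.33 and 6.92 against control, the 5 others lie between -0.87 and 1.25, and the differences between the mutants run from 0.01 to 0.70.

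Of the 6 measured members, 0 were called between TrbE10 and TrbE14 by limma, as were 0 of 18021 genes (0%). An unadjusted p under 0.05 was reached by 1 member, Clec4n, and by 1417 of 24593 probes, and SAM called 0 members as well. Members were placed on 3 chromosomes, with Cd207, Clec4n and Clec7a on chromosome 6, Cd209a and Cd209f on chromosome 8, and Clec10a and Mgl2 on chromosome 11.

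Around Cd207, no neighbouring gene was called in either mutant by limma. Within 150 kb of its probe on either side (mm9, a window chosen after the values were seen) lay 18 probes, and 12 of them passed the filter. Clec4f, a lectin of liver macrophages whose probe lies 26.2 kb away, differed from control by 0.23 in TrbE10 (adjusted p = 0.853 by limma) and 0.32 in TrbE14 (adjusted p = 0.775). Stambp, Tex261, Nagk and Paip2b differed by between -0.16 and 0.05 in TrbE10. The 5 probes of an unnamed transcribed interval about 70 kb away were higher by 0.37 to 0.53 in TrbE10 and by 0.28 to 0.45 in TrbE14, with none called by limma. Vax2os2, Vax2os1, Vax2, Atp6v1b1 and Ankrd53, on the other side, did not pass the filter.

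**Figure D3:**
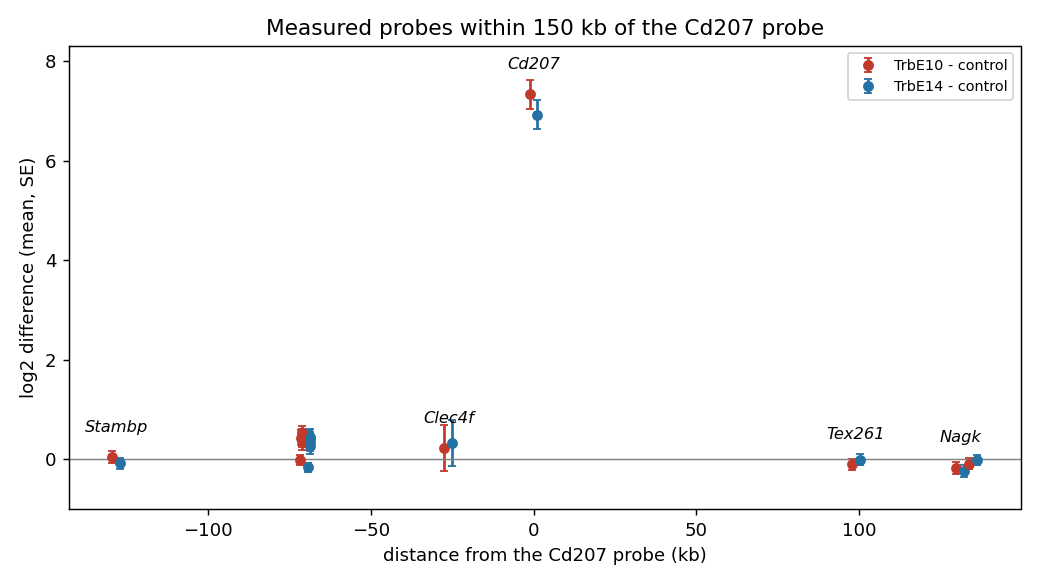
Log2 difference from control (y axis, error bars SE) of the 12 probes that passed the filter within 150 kb of the Cd207 probe, against their distance from it in kb (x axis), for both mutants. The Cd207 points stand at 7.33 and 6.92 and every other probe lies between -0.23 and 0.53, with the 5 probes of the unnamed interval above 0 by 0.28 to 0.53 and none of them called.

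Among other lectins of myeloid cells none passed the test. Of 24 listed genes 23 were on the array and 10 were measured. None of the 10 was called in either mutant by limma, against 2.15% and 0.76% of all genes, and SAM called 0 as well. An unadjusted p under 0.05 by limma was reached by 4 of them in TrbE10 and by 3 in TrbE14. Over all 24593 probes it was reached by 4022 in TrbE10 and by 3340 in TrbE14. A listed gene counted when any of its kept probes did, so counts of genes and of probes are not like for like. The median log2 difference was 0.21 in TrbE10 and 0.03 in TrbE14, beside -0.02 and -0.03 over all genes. Clec4d, a relative of Clec4n, had the highest difference at 1.57 in TrbE10 (adjusted p = 0.186) and 1.43 in TrbE14 (adjusted p = 0.298). It read 6.00, 6.19, 3.89 and 5.76 in control hearts, so replicate 3 lowered the control mean. Only 3 of these 4 arrays were well above background for it. Clec4a1, a relative of the dendritic cell inhibitory receptor, read 7.86, 8.04, 8.36 and 7.88 in control and 8.57, 8.40, 8.96 and 8.53 in TrbE10 hearts, without overlap, a difference of 0.58 just outside the threshold (adjusted p = 0.0597 by limma). It was called with the authors' values, with sex as a covariate and without control replicate 3 or TrbE10 replicate 2. Mrc1, the macrophage mannose receptor, differed by 0.19 and -0.06 (adjusted p = 0.385 and 0.825).

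The other measured genes of the Cd209 family pointed the same way as Cd209f. Cd209d differed from control by -1.10 in TrbE10 and -1.57 in TrbE14 (adjusted p = 0.211 and 0.129 by limma), and its TrbE14 hearts, at 6.14, 6.45, 5.32 and 5.92, all lay below the control hearts, at 8.53, 7.42, 7.25 and 6.91. Cd209g differed by -0.81 and -0.49 (adjusted p = 0.110 and 0.383). Clec9a, Clec12a, Clec4e, Clec5a and Ly75 were among the 11 listed lectins that were never well above background. Among lectins of endothelium and matrix, 9 of 15 were measured and 1 rose in each mutant, beside 1.36% and 0.583% of all genes called higher. This was Colec11, a soluble collectin, by 0.48 in TrbE10 (adjusted p = 0.0358) and 0.52 in TrbE14 (adjusted p = 0.0438). The brightest others, Cd93 and Thbd of endothelium, differed by 0.07 and -0.68 in TrbE10 (adjusted p = 0.893 and 0.226). In TrbE14 they differed by 0.02 and -0.65 (adjusted p = 0.961 and 0.314). Clec14a of the same list read 6.81, 7.59, 7.61 and 7.37 in control hearts and was above all of these in each mutant heart. It differed by 1.04 in TrbE10 (adjusted p = 0.0568 by limma) and 0.85 in TrbE14 (adjusted p = 0.173). Clec3b differed by -0.92 in TrbE10 and -0.998 in TrbE14 (adjusted p = 0.154 and 0.191).

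Of 10 measured signalling partners of lectins, adaptors, kinases and phosphatases, 4 rose and 0 fell in TrbE10, where 1.36% of all genes were called higher. In TrbE14 1 rose and 0 fell, where 0.583% were called higher. Fcer1g, the gamma chain that Clec4n signals through, read 10.80, 10.77, 11.22 and 11.03 in control, 11.77, 11.45, 11.89 and 11.79 in TrbE10 and 11.44, 11.36, 11.66 and 11.25 in TrbE14 hearts. It differed by 0.77 in TrbE10 (adjusted p = 0.0190 by limma) and 0.47 in TrbE14 (adjusted p = 0.180). Tyrobp, the adaptor DAP12, rose by 0.71 in TrbE10 (adjusted p = 0.0194), its relative Hcst by 0.78 (adjusted p = 0.00271), and Vav1, an exchange factor, by 0.88 (adjusted p = 0.00128). Prkcd, a kinase in the dectin pathway, rose by 0.55 in TrbE14 (adjusted p = 0.0323). None of these was called between the mutants by limma, the largest difference being 0.44 for Vav1 (adjusted p = 0.361). Plcg2 and Bcl10, other steps of the pathway, differed by -0.09 and 0.08 in TrbE10 (adjusted p = 0.839 and 0.772), and Malt1, Ptpn6 and Inpp5d by 0.01, 0.54 and 0.33 (adjusted p = 0.988, 0.130 and 0.286).

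Of 17 macrophage markers, all measured, 7 were called higher and 0 lower in TrbE10 and 1 higher in TrbE14, beside 1.36% and 0.583% of all genes, and their part in the Cd207 result was not tested. In bulk tissue more cells of a type and more RNA per cell cannot be told apart. Fcgr1 and Timd4 were below the background call on all 4 control arrays and passed the filter only through mutant hearts. Among the 15 others 6 were called in TrbE10 and 1 in TrbE14. Summed linear signal of the list lay between 20250 and 23030 in control, between 29220 and 33450 in TrbE10 and between 25910 and 29950 in TrbE14 hearts, with no overlap of control and mutants. Csf1r made up a large share of this sum, from 22.3% to 34.1% of it on single arrays. Without Csf1r the sum lay between 15590 and 17525 in control and between 19436 and 22033 in TrbE10 hearts, still apart, while TrbE14 hearts, between 17152 and 20895, overlapped the control hearts. Csf1r, the receptor for macrophage growth factors, rose by 1.14 in TrbE10 (adjusted p = 1.12e-04 by limma) and 0.92 in TrbE14 (adjusted p = 6.07e-04). Aif1, C1qc, C1qa and Cd68 rose in TrbE10 by 0.96, 0.84, 0.72 and 0.60 (adjusted p from 0.0153 for C1qc to 0.0477 for Aif1). Itgam was called in TrbE10 through 1 probe, at 0.60 (adjusted p = 0.0392), while its brightest probe differed by -0.09 (adjusted p = 0.729). Folr2, Lyve1 and C1qb, also macrophage markers, differed by 0.14, -0.18 and 0.62 in TrbE10 (adjusted p = 0.777, 0.661 and 0.146) and by -0.16, 0.03 and 0.21 in TrbE14 (adjusted p = 0.749, 0.953 and 0.634).

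Dendritic and Langerhans cell markers did not pass the test. Of 12 listed genes 9 were measured and 0 were called in either mutant by limma, with medians of 0.13 and -0.11. At an unadjusted p under 0.05 there were 2 genes in each, beside 4022 of 24593 probes in TrbE10 and 3340 in TrbE14, a count of probes and not of genes. The listed markers differed in detection. Itgae and Xcr1 were well above background on none of the 12 arrays and Epcam, which Langerhans cells carry, on 1 TrbE14 array. Batf3, Irf8, Zbtb46, Cd24a, Cd83 and Siglech were well above background on all 12 arrays, Itgax on 11, Ccr7 on 10 and Flt3 on 7. Other cells make some of the listed genes as well, and which cells made Cd207 was not tested. The Siglech probe was bright, with a control mean of 13.86, and whether another transcript adds to it was not tested. Irf8 differed by 0.20 and -0.15 (adjusted p = 0.498 and 0.636), and Siglech by -0.19 and -0.11 (adjusted p = 0.835 and 0.905). Summed signal of this list was mostly that of Siglech, and without it lay between 1140 and 1497 in control, between 1168 and 1508 in TrbE10 and between 982 and 1085 in TrbE14 hearts, the last below every control heart. Cd83 differed by -0.68 in TrbE10 and -1.04 in TrbE14 (adjusted p = 0.158 and 0.0679 by limma). It read 8.64, 8.99, 9.11 and 8.82 in control hearts and was below all of these in each mutant heart. How much of the lower sum in TrbE14 came from Cd83 was not tested. Of 6 measured genes of Langerhans cell development, 2 were called in TrbE10 and 1 in TrbE14, all higher, beside 1.36% and 0.583% of all genes. Id2 rose by 1.19 in TrbE10 (adjusted p = 0.0358), and Csf1 was called in both mutants through 1 probe, with log2 differences of 0.84 and 0.63 (adjusted p = 5.21e-04 and 0.00465), while its brightest probe differed by 0.45 and 0.08 (adjusted p = 0.437 and 0.910). Tgfbr2 and Tgfb1, of the pathway that Langerhans cells need, differed by 0.13 and -0.06 in TrbE10 (adjusted p = 0.549 and 0.804). In TrbE14 they differed by 0.16 and 0.05 (adjusted p = 0.512 and 0.842). Il34 and Ahr, the other measured genes of this list, differed by 0.15 and 0.07 in TrbE10 (adjusted p = 0.708 and 0.931). In TrbE14 they differed by 0.17 and -0.2 (adjusted p = 0.671 and 0.7498). Runx3 did not pass the filter, being well above background on 2 control, 0 TrbE10 and 0 TrbE14 arrays.

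Other blood and skin cell markers did not pass the test in either mutant. Of 2 monocyte, 5 neutrophil, 7 lymphocyte, 2 keratinocyte and 5 alternative activation genes measured, 0 were called by limma. At an unadjusted p under 0.05 each of these lists held 1 or 2 genes in TrbE10, beside 4022 of 24593 probes, a count of probes and not of genes. F13a1 and Plac8, made by monocytes, differed by 0.19 and 0.92 in TrbE10 (adjusted p = 0.538 and 0.207). S100a9 and Elane of neutrophils differed by 0.85 and 0.16 (adjusted p = 0.717 and 0.524), Cd3e and Cd4 of T cells by 0.16 and -0.05 (adjusted p = 0.708 and 0.880). Cd79b, part of the B cell receptor, read 6.79, 6.11, 6.16 and 6.66 in control hearts and was above all of these in each mutant heart, by 0.97 in TrbE10 (adjusted p = 0.0559 by limma) and 0.93 in TrbE14 (adjusted p = 0.106). Of the keratinocyte genes, Krt10 differed by -0.24 in TrbE10 (adjusted p = 0.450) and Lor by 1.44 (adjusted p = 0.197). Genes of alternatively activated macrophages were split. Retnla differed by -1.65 in TrbE10 (adjusted p = 0.0560) and -1.45 in TrbE14 (adjusted p = 0.134), and Ccl24 by -0.47 and -0.02 (adjusted p = 0.406 and 0.978). Chi3l3 was well above background on 0 control, 2 TrbE10 and 3 TrbE14 arrays and was not called (adjusted p = 0.0967 and 0.189).

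Muscle genes gave a check of the tissue. Of the ventricular genes, Tnnt2 differed by -0.04 in TrbE10 (adjusted p = 0.909) and 0.11 in TrbE14 (adjusted p = 0.692), and Pln, which restrains the calcium pump, by -0.14 and -0.04 (adjusted p = 0.555 and 0.876). Myl3 held the highest normalised value of its array on 9 of 12 arrays, so quantile normalisation fixes its level there. Scaled to the 75th percentile instead, Myl3 differed by -0.01 and 0.01 and Actc1 by 0.05 and 0.02, and none of the 6 ventricular genes was called. Of 4 atrial genes Sln was called in TrbE10, at 3.80 (adjusted p = 0.0177), with 3.33 in TrbE14 (adjusted p = 0.0511), and Nppa differed by 2.07 (adjusted p = 0.0860). Myl7 and Myl4, light chains of atrial muscle, differed by -0.12 and -0.09 in TrbE10 (adjusted p = 0.964 and 0.968). Both spread widely within groups, with SDs for Myl7 of 1.47 in control, 1.40 in TrbE10 and 1.07 in TrbE14. In control hearts Myl7 read 8.7, 10.6, 12.1 and 9.6 and Sln 8.6, 10.8, 12.5 and 9.3, in the same order. Level means therefore do not show that all hearts held equal atrial tissue, and its amount was not tested. Nkx2-5, the deleted gene, fell by 0.66 in TrbE10 (adjusted p = 0.0459) and differed by -0.59 in TrbE14 (adjusted p = 0.106).

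**Figure D4:**
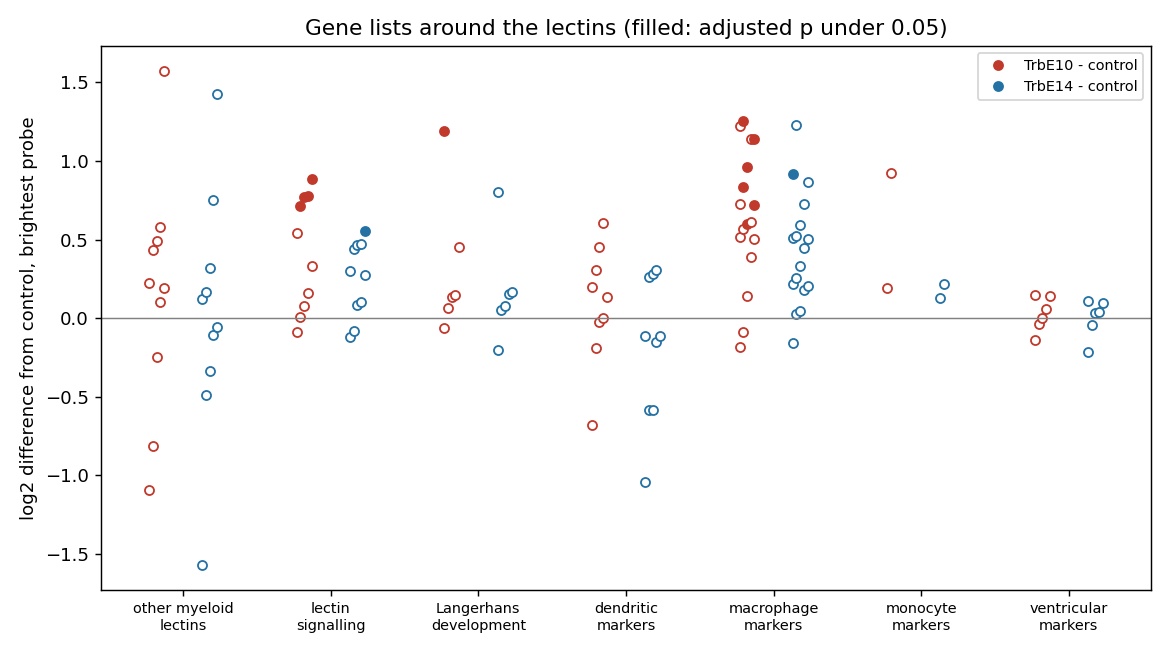
Log2 difference from control (y axis) of each measured gene of 7 lists (x axis), 1 point per gene and mutant, taken from its brightest probe and filled where limma gave an adjusted p under 0.05. Filled points lie among the signalling genes (0.55 to 0.88), the macrophage markers (0.60 and above) and Id2, and none lies among the other myeloid lectins or the dendritic markers.

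Among the 8 mutant hearts, the genes whose signal followed Cd207 most closely were mostly not lectins of the list. The control hearts were left out because Cd207 had no measured order there. Of 18020 genes compared, 43 had a Pearson r of 0.9 or more with Cd207 over the 8 arrays. Lgals3, galectin-3, a sugar-binding protein of macrophages, came first (r = 0.98, rho = 0.90), followed by C2, a complement component (r = 0.97, rho = 0.79), and Cebpa, a transcription factor of myeloid cells (r = 0.97, rho = 0.93). Next were Serping1, the complement C1 inhibitor (r = 0.96), Slc10a3 (r = 0.96), Hmha1 (r = 0.95), Sln (r = 0.95) and Tgfb2 (r = 0.94). Without TrbE10 replicates 3 and 4, the pair of arrays farthest from the median of Cd207, r was 0.99 for Lgals3 and 0.95 for Cebpa. It was lower for others of the 8, down to 0.89 for Serping1 and 0.86 for Sln. The points share slide and group, TrbE14 being tightly placed, and with each group centred r was 0.98 for Lgals3 and 0.96 for Cebpa. Both checks keep TrbE10 replicate 2, the lowest heart for Cd207 at 10.13, and how far they rest on it was not tested. In that heart Lgals3 read 8.65, against 9.69, 10.30 and 9.65 in the other TrbE10 hearts.

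The members themselves followed Cd207 less closely. The r with Cd207 over the 8 mutant hearts was 0.72 for Mgl2, 0.58 for Clec4n, 0.27 for Clec7a, -0.44 for Cd209f and -0.51 for Clec10a. Without TrbE10 replicates 3 and 4 it was -0.0014 for Clec4n, -0.02 for Clec7a and 0.77 for Mgl2, so that of Clec4n rested on those hearts. With each group centred it was 0.30 for Clec4n, -0.07 for Clec7a and 0.52 for Mgl2. The closest pair among the members was Clec4n and Clec7a, both dectins, with an r of 0.91 and a rho of 0.93 over the same 8 hearts. These r values describe 8 hearts and carry no p.

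**Figure D5:**
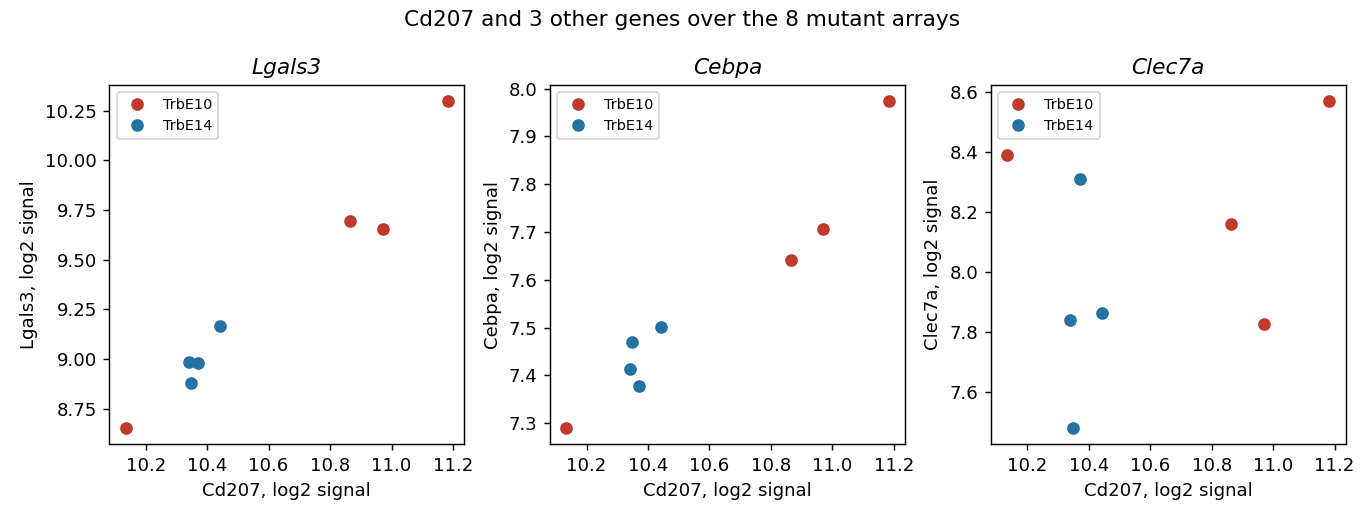
Log2 signal of Lgals3, Cebpa and Clec7a (y axes) against that of Cd207 (x axes) on the 8 mutant arrays, coloured by group. The points of Lgals3 and Cebpa rise with Cd207 (r = 0.98 and 0.97), while those of Clec7a scatter (r = 0.27), and the TrbE14 points sit within a narrow range of Cd207 from 10.34 to 10.44.

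By the signal of the Y-linked gene Ddx3y, the male hearts numbered 1 in the control group, 2 in TrbE10 and 3 in TrbE14. Ddx3y was picked after the values of 4 Y-linked genes were seen, and Eif2s3y, another of them, separated the same 6 hearts, at 10.26 or more against 5.00 or less. With sex as a covariate the log2 difference of Cd207 was 7.30 in TrbE10 and 6.85 in TrbE14. Within slide 1, which held the control and TrbE14 arrays, Cd207 differed by 6.92 in TrbE14, and TrbE10 could not be compared with control within a slide.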

How the data were processed

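The authors deposited, for each array, the intensity output of the scanner software (Agilent Feature Extraction 10.5, per the submitters' processing notes), background-subtracted on a linear scale and not scaled between arrays, together with log2 values that they had quantile normalized and filtered on background. Here log2 of the processed signal was quantile normalized with limma 3.58.1 in R 4.3.3 (tables read with the package data.table, version 1.17.8). Control spots and spots flagged as outliers were left out, spots of a probe were averaged, and probes well above background on at least 3 of 4 arrays of any group were kept. A limma model with 1 mean per group gave p-values adjusted by the Benjamini-Hochberg method over all kept probes, and a gene was called when any of its probes had an adjusted p under 0.05. Every adjusted p comes from this model. Each gene is described by its kept probe with the highest mean signal. Exact two-sided permutation tests used all 70 label orders of 8 arrays. On simulated data made from 24593 probes, with 200 changed between TrbE10 and control, limma recovered 88% with 10 false calls. The planted log2 changes were of size 1 or more, in normal noise independent between arrays and probes. The 88% therefore does not apply to smaller differences or to arrays that share part of their spread. Precision is limited by the number of arrays.

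The members and gene lists were chosen with earlier results of these data known. Genes named are the members and the 8 genes most correlated with Cd207. From each list those called in either mutant (at most 6) and 2 others with the highest signal are named. Some others of the lists were named after their values were seen. RefSeq promoter windows were searched in Python 3.11.15, which also drew the figures with matplotlib 3.10.9. A search for an NF-kB motif, which was also made, is not reported here. As alternatives, the 75th percentile replaced the quantiles, normexp with an offset of 50 replaced the scanner's background step, the filter asked for 9 of 12 arrays or was dropped, the authors' own log2 values were used, and each pair of groups was fitted alone. Further alternatives were the replicate number as a block, sex as a covariate, SAM at a false discovery rate of 5%, the other Cd209a probe and each array left out in turn. Sums and counts of markers without single genes, the rank of Cd207 under other scalings and the ventricular genes scaled to the 75th percentile were added after the values were seen.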

Additional observations from a re-analysis of the deposited data

Results flagged for a closer look

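In groups of 4 arrays, a single array was set apart from the other 3 where its gap to the nearest of them, divided by the whole range, passed Dixon's critical value for 4 samples. This was so in 11 of 150 groups of members and named genes (7.33%), and chance alone gives about 1 in 20. Among the members it concerned only the first Cd209a probe in control replicate 4 (ratio 0.98), at a signal of 2.93 that was not well above background. Vav1 was lowest in control replicate 1 (0.84), Prkcd highest in TrbE14 replicate 3 (0.88), and Plcg2 highest in control replicate 2 (0.88). Csf1r was highest (0.85) and C1qb lowest (0.86) in control replicate 3. Siglech was lowest in TrbE14 replicate 4 (0.84), at 12.53 against 14.04 for the next array. Elane was highest in TrbE10 replicate 3 (0.86), Myl3 lowest in TrbE14 replicate 4 (1.00), Actc1 lowest in control replicate 4 (1.00), and Nkx2-5 highest in TrbE10 replicate 2 (0.86). Myl3 sits at the top ranks, whose values quantile normalization sets alike on all arrays.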

How the results depend on the processing

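The direction of the Cd207 difference from control held in all 20 alternatives that measured it, between 4.44 and 7.63 in TrbE10 and between 4.04 and 7.21 in TrbE14. Its calls are not read as support, because this contrast chose it and its probe passed the main filter only through mutant arrays. It was called in each alternative except the filter on 9 of 12 arrays. That filter removes it by construction because the 4 control arrays have no measured level, so the called members fell to 0 in both mutants. The count of called members in TrbE10 ran from 1 to 2 with each array left out, the 2 arising without control replicate 3 (Clec7a), a count from which nothing is read, and stayed at 1 in TrbE14. Called other myeloid lectins in TrbE10 were 1 with the authors' normalized values (Clec4a1) and 1 with sex as a covariate (Clec4a1), and from 0 to 2 with each array left out: 1 without control replicate 3 (Clec4a1) and 2 without TrbE10 replicate 2 (Cd209g and Clec4a1). In TrbE14 the count was 1 with sex as a covariate (Cd209d). Between the mutants 0 members were called under every alternative run. The sign of the Clec10a difference between them turned to -2e-04 under scaling to the 75th percentile and -0.0446 under normexp, and with each array left out it ran from -0.13 to 0.13, and that of Cd209f from -0.13 to 0.51. The causes were not tested. Residual correlations of arrays with equal replicate numbers ran from -0.24 to 0.08 where 1 of them was a control. Between TrbE10 and TrbE14 they were 0.37, 0.31, -0.01 and 0.48 for numbers 1 to 4. What the mutant arrays of equal number share was not tested, and the main model and permutation tests did not use the numbers. With the replicate block the called genes were 294 in TrbE10 and 134 in TrbE14, beside 387 and 137 without it. It gave 1 gene between the mutants, and no call of a member changed. Without 1 array, called genes in TrbE10 ran between 145, with TrbE10 replicate 3 left out, and 655, with TrbE10 replicate 2 left out, and in TrbE14 between 74, with control replicate 3 left out, and 174, with TrbE10 replicate 2 left out. No filter gave 183 genes in TrbE10, fits of 2 groups 246 in TrbE10, normexp 223 and SAM 299 in TrbE14. Slide could not be fitted as a block for TrbE10. Probes near background have no measured level, which limits Cd207 in control and Cd209a in all groups.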
